A study of Mus musculus with 8 samples.

Results

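The dystrophin-glycoprotein complex was followed through 8 of its genes, Dmd, Utrn, Dag1, Sgca, Sgcb, Sgcd, Dtna and Sspn, out of 18193 genes named on the arrays. They were taken by symbol: every probe set whose annotation gives a single gene symbol, and that symbol is one of the 8, was kept. This gave 25 probe sets, 22 on the Affymetrix MOE430A array and 3 on MOE430B. The mouse cells, which the submitters regard as putative stem cells of hind limb muscle, were grown as 4 cultures, and RNA of each was hybridised to both array types. In the MACS group (replicates 2 and 3) cells were isolated with magnetic beads as Sca1-positive and CD45-negative. In the PP6 group (replicates 2 and 3) cells were obtained by preplating, which separates cells by how fast they settle on a dish. All cultures grew in F10 Ham medium with serum and antibiotics, and the labels name muscle cells as the contaminating cell type for both groups. No strain, age, genotype or number of animals is given in the sources used here, and no purity estimate was made for PP6. As nothing states that replicates came from separate animals, p-values measure only the spread between these cultures.

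The complex spans the plasma membrane of muscle fibres and links the actin cytoskeleton to the laminin-rich basement membrane. Dystroglycan forms its core, dystrophin or its relative utrophin binds it from the cytoplasm, and the sarcoglycans and sarcospan form a side complex in the membrane. Loss of dystrophin or of α-, β- or δ-sarcoglycan causes muscular dystrophy in humans and mice. In muscle, dystrophin and α-sarcoglycan accumulate as myoblasts fuse and mature, while dystroglycan and utrophin are also made by many non-muscle cells.

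Of the 25 probe sets, 10 gave a signal above the median of their array in all 4 cultures, 14 in none and 1 in a single culture. The 10 bright ones belong to Dag1, Sgca, Sgcb, Sspn and Utrn. No probe set of Dmd, Dtna or Sgcd reached the array median in any culture. A probe set was tested only when it lay above the array median in at least 2 cultures, so 10 of 25 were tested and the other 15 are given as values. With limma, 0 of the 10 passed a Benjamini-Hochberg adjusted p of 0.05, 0 passed at an unadjusted p under 0.05, and the smallest adjusted p was 0.523. Over all 23963 tested probe sets, 0% passed the adjusted threshold and 11.5% an unadjusted p under 0.05, 5.69% higher and 5.83% lower in PP6. Estimates of tested probe sets are given with their intervals, since a p above the threshold does not show equal levels.

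Start-site sequences of 7 of the 8 genes were taken from RefSeq (build GRCm38.p6), in windows from 250 bases before to 50 bases after an annotated start. The windows below are those of Sgca and Dag1, the genes in which a tested probe set had groups that did not overlap, and of both listed starts of Dmd, the gene after which the complex is named. Each is written 5′ to 3′ on the strand of the gene. Capitals mark E-boxes (CANNTG, the motif bound by MyoD-family and other bHLH factors, which reads the same way on both strands) and GC boxes (GGGCGG on either strand, the motif bound by Sp1-family factors); none of these matches overlapped a match of the other motif.
Sgca, chr11:94976278-94976577, minus strand: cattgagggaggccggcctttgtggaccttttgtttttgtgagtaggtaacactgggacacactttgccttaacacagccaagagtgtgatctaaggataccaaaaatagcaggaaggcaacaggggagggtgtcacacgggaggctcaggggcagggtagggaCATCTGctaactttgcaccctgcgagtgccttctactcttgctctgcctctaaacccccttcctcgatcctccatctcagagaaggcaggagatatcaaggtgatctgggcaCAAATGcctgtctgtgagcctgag
Dag1, chr9:108263909-108264208, minus strand: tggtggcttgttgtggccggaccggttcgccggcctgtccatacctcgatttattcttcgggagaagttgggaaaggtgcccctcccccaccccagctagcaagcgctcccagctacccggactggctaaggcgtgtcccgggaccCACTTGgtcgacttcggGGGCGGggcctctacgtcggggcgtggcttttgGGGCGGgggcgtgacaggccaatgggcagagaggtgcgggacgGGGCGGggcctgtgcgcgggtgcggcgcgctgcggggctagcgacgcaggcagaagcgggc
Dmd, chrX:82948620-82948919, plus strand: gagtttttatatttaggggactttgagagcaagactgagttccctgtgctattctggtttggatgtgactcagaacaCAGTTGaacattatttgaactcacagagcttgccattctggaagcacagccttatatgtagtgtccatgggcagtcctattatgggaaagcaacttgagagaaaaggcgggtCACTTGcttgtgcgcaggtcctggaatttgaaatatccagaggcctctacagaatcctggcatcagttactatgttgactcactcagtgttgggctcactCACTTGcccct
Dmd, chrX:85048045-85048344, plus strand: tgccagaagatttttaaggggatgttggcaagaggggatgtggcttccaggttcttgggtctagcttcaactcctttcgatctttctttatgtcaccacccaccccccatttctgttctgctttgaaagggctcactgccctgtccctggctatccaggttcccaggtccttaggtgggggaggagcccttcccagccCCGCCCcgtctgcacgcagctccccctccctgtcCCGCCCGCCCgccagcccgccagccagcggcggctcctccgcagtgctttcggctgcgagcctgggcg

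The Sgca window held 2 E-boxes and 0 GC boxes, and its GC content was 52.7%, which is also the median of all 32841 windows of that length. The printed Dag1 window held 1 E-box and 3 GC boxes at a GC content of 69.7%. A second Dag1 window, which overlaps it and is not printed, held 1 E-box and 4 GC boxes at 75.3%. The upstream Dmd window held 3 E-boxes, 0 GC boxes and 2 CpG dinucleotides, and the downstream one 0 E-boxes, 3 GC boxes and 14 CpG dinucleotides. An E-box was present in 72.3% of all windows and a GC box in 35.7%, and 17.6% held at least 3 E-boxes. The Utrn window held 7 E-boxes, a number reached by 0.177% of windows. Sgcb and 1 of the 2 Sspn windows held 0 E-boxes, and Sgcd held 2. A match describes letters in these windows only, and no binding was measured.

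**Figure D1:**
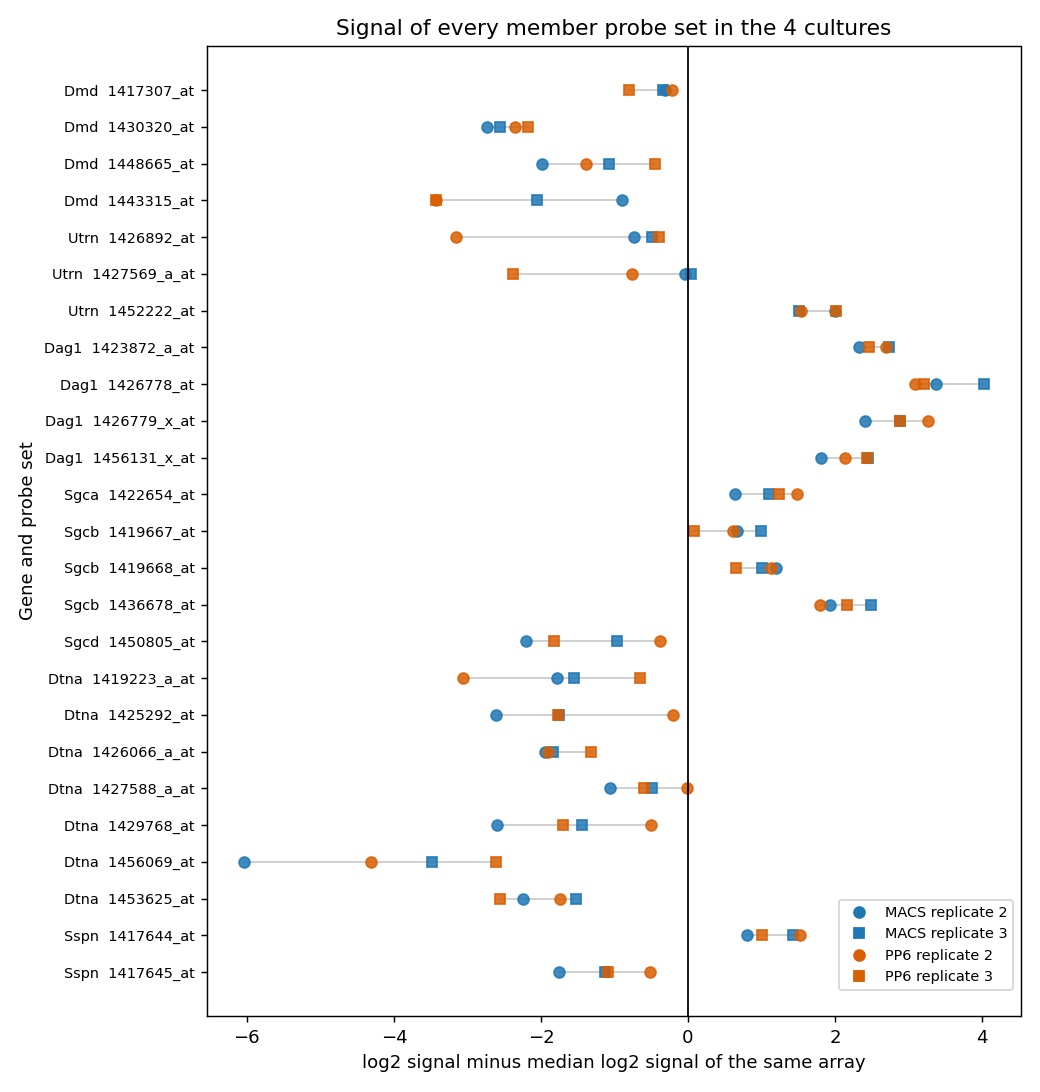
Log2 signal of each of the 25 probe sets in each culture, minus the median log2 signal of the same array; points are single cultures (blue MACS, orange PP6, circles replicate 2, squares replicate 3) and the vertical line is the array median. All 4 probe sets of Dag1 lie right of the line in every culture, and all probe sets of Dmd, Dtna and Sgcd lie left of it.

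Dag1 encodes the precursor that is cut into α-dystroglycan, the laminin receptor outside the cell, and β-dystroglycan, which crosses the membrane and binds dystrophin. All 4 of its probe sets were far above the array median, by 1.80 to 4.02 log2 units. Probe set 1426778_at had a log2 signal of 12.52 and 13.21 in MACS replicates 2 and 3, and of 12.37 and 12.51 in PP6 replicates 2 and 3. Both PP6 values lay below both MACS values, but PP6 replicate 3 and MACS replicate 2 were almost equal. The difference, PP6 minus MACS, was -0.42 ± 0.29 log2 units (SE), a 1.34-fold lower mean in PP6, with a limma adjusted p of 0.62 and a 95% interval of -1.13 to 0.29. Without MACS replicate 3 it was -0.075, and without MACS replicate 2 -0.76. Probe set 1426779_x_at, for which the annotation lists the same reference sequence, stood at 11.55 and 12.07 in MACS and at 12.55 and 12.18 in PP6. Here both PP6 values lay above both MACS values, with a difference of 0.56 ± 0.28 (SE, 95% interval -0.14 to 1.25), the opposite sign. Relative to the array medians, MACS replicate 3 and PP6 replicate 3 were level at 2.88. Its suffix marks probes that can also match other transcripts.

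The remaining Dag1 probe sets did not separate the groups. Probe set 1423872_a_at stood at 11.47 and 11.91 in MACS and at 11.97 and 11.76 in PP6, and 1456131_x_at at 10.95 and 11.63 in MACS and at 11.42 and 11.73 in PP6. Their differences were 0.17 ± 0.26 and 0.28 ± 0.32 log2 units (SE), with adjusted p of 0.838 and 0.772 in limma. In both, the value of at least 1 PP6 culture lay between those of the MACS cultures. The mean over the 4 was 0.15 log2 units, so no direction for dystroglycan was common to its probe sets.

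Dmd encodes dystrophin, the long rod that ties the complex to actin, and several short isoforms from internal starts. Its 4 probe sets were dim everywhere. Probe set 1417307_at stood closest to the array median, with log2 signals of 8.83 and 8.84 in MACS and 9.07 and 8.50 in PP6. PP6 replicate 2 was the highest and PP6 replicate 3 the lowest, so the groups overlapped. The second probe set with the same reference sequence, 1448665_at, stood at 7.16 and 8.12 in MACS and at 7.90 and 8.85 in PP6, also overlapping. Probe set 1430320_at was at 6.42 and 6.63 in MACS and 6.93 and 7.13 in PP6, with PP6 above MACS, and 1443315_at at 8.78 and 7.55 in MACS and 6.30 and 6.36 in PP6, with PP6 below MACS. These 2 probe sets, the ones whose groups did not overlap, thus pointed in opposite directions, by 0.50 and -1.83 log2 units. On its array 1443315_at ranked between the 20.6th and 34.8th percentile in MACS and near the 6th (6.46 and 6.06) in PP6. With no filter on dim signals the fit gave it a p of 0.0619 (limma, adjusted p 0.576), the smallest of the 25 probe sets.

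Utrn encodes utrophin, the relative of dystrophin that occupies the membrane of immature muscle and of many other cells. Its bright probe set 1452222_at stood at 11.15 and 10.69 in MACS and at 10.82 and 11.31 in PP6. The groups overlapped, and the difference was 0.14 ± 0.32 log2 units (SE, 95% interval -0.64 to 0.93). The other probe sets of Utrn were near or below the array median. Probe set 1427569_a_at stood at 9.10 and 9.22 in MACS and at 8.52 and 6.92 in PP6, with both PP6 cultures lower. Probe set 1426892_at stood at 8.41 and 8.69 in MACS and at 6.13 and 8.90 in PP6, where PP6 replicate 2 alone was low. The bright and the dim probe sets therefore gave differences of opposite sign, 0.14 against -1.44 and -1.04, and the dim ones were not tested.

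Sgca encodes α-sarcoglycan, the sarcoglycan that is largely restricted to striated muscle. Its only probe set, 1422654_at, had log2 signals of 9.78 and 10.29 in MACS and of 10.77 and 10.54 in PP6. Both PP6 cultures lay above both MACS cultures, and all 4 lay above the array median. The mean went from 10.03 ± 0.36 to 10.65 ± 0.16 (SD, n = 2), a 1.54-fold higher level in PP6. The difference was 0.62 ± 0.34 log2 units (SE, 95% interval -0.21 to 1.45) with a limma adjusted p of 0.544, so it did not pass the test. In bulk RNA, fewer cells of a type and less RNA per cell cannot be told apart.

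Sgcb and Sgcd encode β- and δ-sarcoglycan, which form the core of the sarcoglycan side complex and are made in smooth as well as striated muscle. For Sgcb, 1419668_at stood at 10.34 and 10.19 in MACS and at 10.41 and 9.96 in PP6. Its probe set on the second array type, 1436678_at, stood at 11.62 and 12.10 in MACS and at 11.53 and 11.96 in PP6. In both, replicates of a group were farther apart than the group means, and the differences were -0.08 ± 0.34 and -0.12 ± 0.29 log2 units (SE). The third, 1419667_at, stood at 9.81 and 10.18 in MACS and at 9.89 and 9.39 in PP6, a difference of -0.36 ± 0.41 (SE) with overlapping groups. The 95% intervals were -0.92 to 0.75 for 1419668_at, -0.83 to 0.60 for 1436678_at and -1.37 to 0.66 for 1419667_at, and the last of these includes a 2-fold lower level in PP6. Sgcd had a single probe set, 1450805_at, at 6.93 and 8.22 in MACS and at 8.90 and 7.47 in PP6. It was below the array median in every culture, the spread within each group exceeded the 0.61 between their means, and it was not tested.

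Sspn encodes sarcospan, a membrane protein with 4 transmembrane segments that joins the sarcoglycans. Probe set 1417644_at stood at 9.95 and 10.61 in MACS and at 10.81 and 10.30 in PP6. The groups overlapped, with a difference of 0.28 ± 0.38 log2 units (SE, 95% interval -0.67 to 1.22). The dim 1417645_at stood at 7.39 and 8.05 in MACS and at 8.76 and 8.20 in PP6, with both PP6 cultures higher by a mean of 0.76, and it was not tested.

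Dtna encodes α-dystrobrevin, a cytoplasmic relative of dystrophin that carries syntrophins. It had the most probe sets, 7, and none reached the array median. The one nearest its array median, 1427588_a_at, stood at 8.08 and 8.70 in MACS and at 9.27 and 8.70 in PP6, where replicate 3 of the groups was level to 2 decimals. Probe set 1425292_at stood at 6.53 and 7.44 in MACS and at 9.08 and 7.53 in PP6, and 1426066_a_at at 7.20 and 7.35 in MACS and at 7.38 and 7.98 in PP6. In these 3 the PP6 cultures were above the MACS cultures, by means of 0.60, 1.33 and 0.41 log2 units. Relative to the array medians, which were higher in PP6, the groups overlapped in all 3. The other 4 overlapped. Probe set 1419223_a_at stood at 7.37 and 7.63 in MACS and at 6.23 and 8.65 in PP6, and 1429768_at at 6.54 and 7.74 in MACS and at 8.78 and 7.60 in PP6. The one farthest below it, 1456069_at, stood at 3.11 and 5.70 in MACS and at 4.97 and 6.68 in PP6, and 1453625_at at 7.44 and 8.09 in MACS and at 7.99 and 7.24 in PP6. In 1456069_at both groups had an SD above 1 log2 unit (1.83 and 1.21), and without detection calls it was not possible to say which Dtna signals exceed background.

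**Figure D2:**
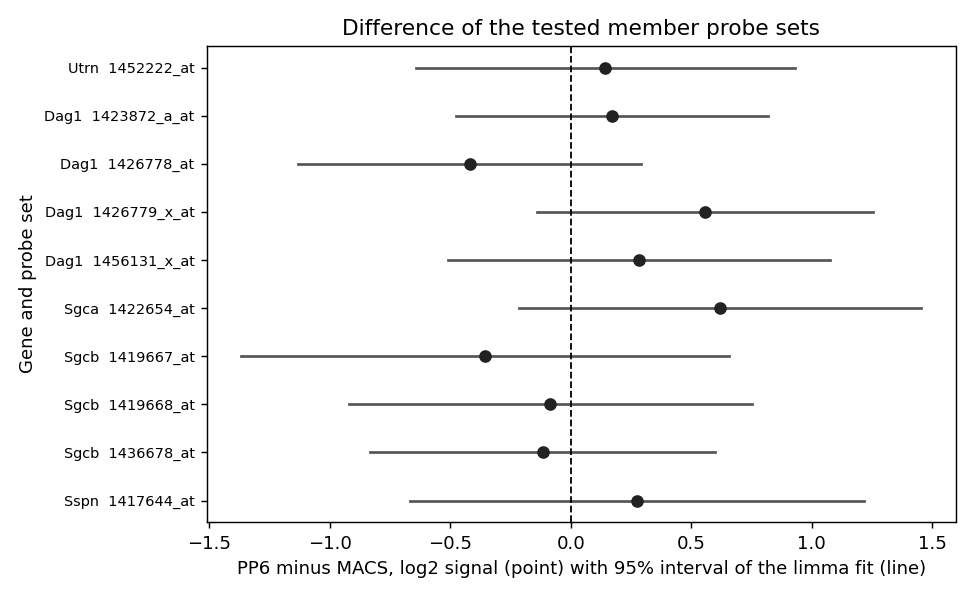
Difference PP6 minus MACS in log2 signal for the 10 tested probe sets, with points for the estimate and lines for the 95% interval of the limma fit on 2 cultures per group. All 10 intervals include 0, and the estimates run from -0.42 (Dag1 1426778_at) to 0.62 (Sgca).

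Counting all 25 probe sets, the groups did not overlap in 10, with PP6 above MACS in 7 and below it in 3. That is 40%, where 40.6% of all 45037 probe sets had groups that did not overlap, 23% above and 17.6% below. Among the 10 tested the groups were apart in 3 (30%), against 44.2% of all tested probe sets. The shares of the complex were thus near the background or under it. The median difference of the 10 was 0.16 log2 units, against 0.01 for all tested probe sets. Centring the arrays on their medians made the median of all tested probe sets -0.11, so that it fell by 0.12, and that of the 10 was then 0.03. It also moved the split at an unadjusted p under 0.05 from 1364 higher and 1396 lower to 948 higher and 1983 lower.

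Levels of cell type markers are given for the same cultures. Of 22 skeletal muscle markers, 18 were tested, and all 18 had both PP6 cultures above both MACS cultures and an unadjusted p under 0.05 in limma, while 0 passed after adjustment. Their median difference was 3.48 log2 units, or 3.14 over all 22 with no filter. The filter admits a marker that is dim in MACS only where it is bright in PP6, so the count over tested markers is no support. Log2 signals in MACS replicates 2 and 3 and PP6 replicates 2 and 3 were 10.50, 10.94, 12.34 and 13.62 for Myog, a regulator of myoblast differentiation. They were 10.55, 9.83, 11.98 and 11.41 for the muscle creatine kinase gene Ckm and 8.50, 8.84, 12.22 and 13.96 for skeletal actin Acta1. The summed signal of the 22 was 12.59 to 13.08 on the log2 scale in MACS and 15.16 to 16.39 in PP6. Of these markers, 2 and 4 exceeded the array median in the MACS cultures and 17 and 19 in the PP6 cultures.

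Leukocyte markers summed to 13.30 and 13.48 in the MACS cultures and to 16.73 and 18.47 in the PP6 cultures, with 13 of 14 tested. Their median difference was 2.49, or 2.42 over all 14 with no filter, and here too some markers passed the filter only through PP6. Among them Ngp, a neutrophil granule gene, stood at 9.74 and 10.71 in MACS and at 15.41 and 16.92 in PP6. S100a8 and S100a9 encode the neutrophil protein calprotectin. S100a8 stood at 9.69 and 9.59 in MACS and at 14.56 and 16.55 in PP6. S100a9 stood at 8.87 and 8.04 in MACS and at 14.20 and 16.42 in PP6, and it passed the filter only through PP6. Ptprc, the gene of the CD45 antigen used in the MACS sort, stood at 8.25 and 8.67 in MACS and at 9.71 and 11.43 in PP6. Fibroblast markers summed to 16.30 to 17.02 in MACS and 17.78 to 17.85 in PP6, with PP6 above MACS in 7 of 9. Schwann cell markers summed to 11.57 to 12.41 and 13.17 to 13.23, and smooth muscle and pericyte markers to 14.60 to 15.04 and 15.41 each. Endothelial markers were lower in PP6 in 8 of 8 tested, and they summed to 14.72 to 14.87 in MACS and 14.18 to 14.30 in PP6. Of the 8, 3 had an unadjusted p under 0.05 in limma, where 5.44% of all tested genes were lower at that threshold. Of all tested genes, 23.8% had both PP6 cultures above both MACS cultures, and 21.9% had both below. Satellite cell and myoblast markers had a median difference of -0.23, with 3 of 8 above, 3 below and 2 overlapping. Several of these cell types can express genes of the complex, and their part in the values of Dag1, Utrn, Sgca, Sgcb and Sspn was not tested.

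Of 7 further subunits on the arrays, 4 were tested, 0 of them with an unadjusted p under 0.05, where 11.2% of the 12278 tested genes had one (5.81% higher and 5.44% lower in PP6). Sgce, the ε-sarcoglycan gene that stands in for Sgca outside striated muscle, stood at 9.87 and 10.24 in MACS and at 10.61 and 10.52 in PP6. Its groups did not overlap, which held for 45.7% of all tested genes (23.8% with PP6 above and 21.9% below), and its difference of 0.51 ± 0.32 log2 units (SE) was close to that of Sgca. The dystrophin relative Drp2 differed by -0.27 ± 0.28, the syntrophin gene Sntb2 by -0.23 ± 0.35 and the β-dystrobrevin gene Dtnb by -0.19 ± 0.33. The 2 tested probe sets of Drp2 gave -0.78 and -0.27, and the 2 of Sntb2 gave -0.65 and -0.23. Sntb1, Sntg1 and Sntg2 were below the filter.

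Ligands of dystroglycan in the matrix had a median difference of 0.30 log2 units over 9 tested genes of 12, against 0.02 for all tested genes. Of all tested genes, 11.2% had an unadjusted p under 0.05. Among the 9, only the proteoglycan gene Bgn had one (0.00483, adjusted p 0.314 in limma). It stood at 15.21 and 15.53 in MACS and at 16.35 and 16.39 in PP6. Its difference was 1.00 ± 0.22 log2 units (SE), and its 3 probe sets gave 0.95 to 1.42, while the suffix of the one shown marks probes that can match other transcripts. Slit2, a guidance cue that binds dystroglycan, differed by 1.24 ± 0.50, the laminin chain gene Lama4 by 0.79 ± 0.34 and Lamc1 by -0.31 ± 0.25. The 2 tested probe sets of Lama4 gave 0.37 and 0.79, and the 2 of Lamc1 gave -0.31 and -0.056. Lama2, the laminin chain of the muscle basement membrane, stood at 10.08 and 9.82 in MACS and at 10.27 and 9.50 in PP6, with overlapping groups. Agrn, the gene of agrin, differed by 0.30 ± 0.32.

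Enzymes that build the laminin-binding sugar of α-dystroglycan had 11 of 18 genes tested, with a median of 0.27 and 0 at an unadjusted p under 0.05. In 4 of the 11 both PP6 cultures were above both MACS cultures, and in 0 were they below, where 23.8% and 21.9% of all tested genes were above and below. These 4 were Dpm2 (0.58 ± 0.27), B4gat1 (0.78 ± 0.41), Dpm3 (0.53 ± 0.31) and Pomt2 (0.33 ± 0.29), in log2 units with SE. Dpm2 and Dpm3 belong to the dolichol-phosphate mannose synthase that supplies mannose, and Pomt2 adds it to the protein. A second Pomt2 probe set gave the opposite sign, -0.47. Large2, which extends the final sugar chain, stood at 10.47 and 6.44 in MACS and at 9.85 and 10.30 in PP6, so its difference of 1.62 ± 1.30 rested on MACS replicate 3.

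Membrane and cytoskeletal partners had 16 of 18 genes tested and a median of -0.21. In 4 of the 16 both PP6 cultures were above both MACS cultures, and in 5 both were below. Of all tested genes, 23.8% were above and 21.9% below. Plec, the cytolinker plectin, was the 1 gene of the 16 at an unadjusted p under 0.05, where 11.2% of all tested genes had one. It stood at 13.34 and 13.66 in MACS and at 12.76 and 12.61 in PP6, lower in PP6 by -0.81 ± 0.22 log2 units (SE, adjusted p 0.334 in limma), with its 3 probe sets from -0.97 to -0.57. Vcl, the vinculin gene, differed by -0.45 ± 0.19 and the β1-integrin gene Itgb1 by -0.61 ± 0.27, with PP6 below MACS in both. Itga7, the laminin-binding integrin of muscle that acts beside the complex, stood at 10.05 and 10.53 in MACS and at 11.22 and 10.67 in PP6, a difference of 0.65 ± 0.35. Nos1, the nitric oxide synthase that the complex anchors at the membrane, differed by 0.36 ± 0.41, and Dysf, the membrane repair gene, by -0.45 ± 0.73. The 2 tested probe sets of Nos1 gave 0.0059 and 0.36.

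**Figure D3:**
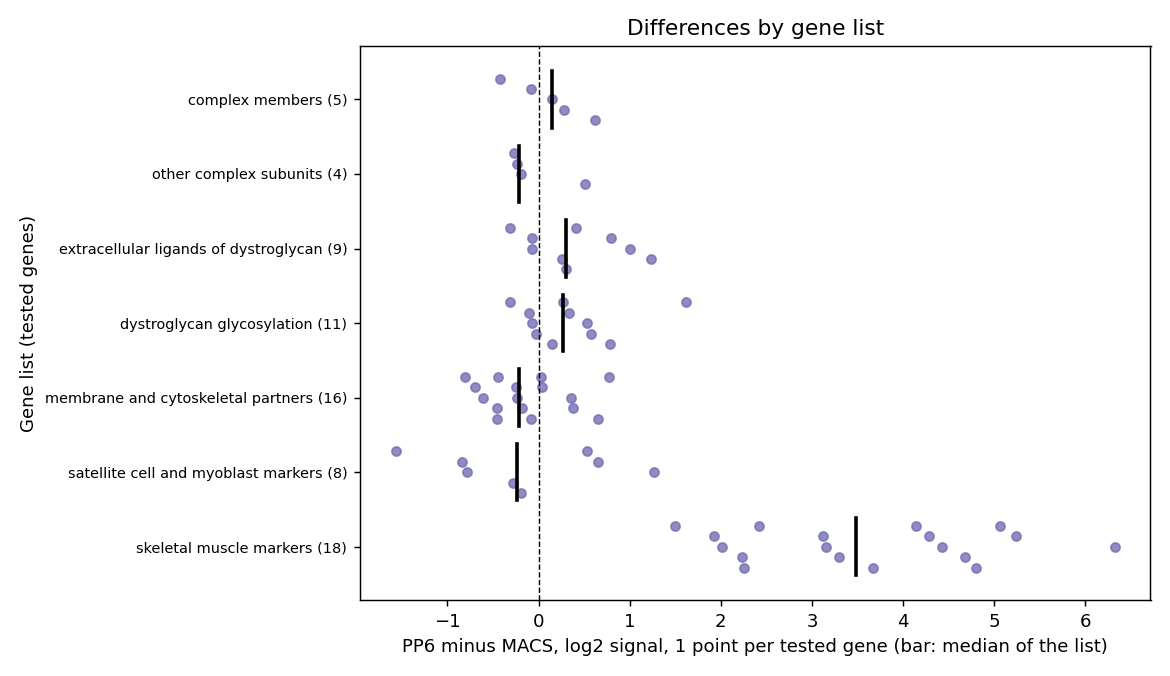
Difference PP6 minus MACS in log2 signal for each tested gene of 7 lists, with 1 point per gene and a bar at the list's median; numbers in brackets are tested genes. The 5 tested members, each by 1 probe set, lie between -0.42 and 0.62. The -0.42 is Dag1 by 1426778_at, and the mean of all tested Dag1 probe sets was 0.15. The 18 skeletal muscle markers reach 6.32, and those dim in MACS could enter only by being bright in PP6.

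The genes whose profiles over the 4 cultures were most like those of each tested member were found among 11340 genes, by the Euclidean distance between log2 profiles after subtracting each profile's mean. For Sgca (1422654_at) they were Tmcc1, Prdx2 and Pdgfc, at distances of 0.036, 0.040 and 0.055 log2 units. For Dag1 (1426778_at) they were Msx1, Pms2 and Pdha1, at 0.052 to 0.066. The mean of that probe set was lower in PP6, while those of the other Dag1 probe sets were higher. Utrn was closest to Tsc2, Gtsf1 and Rps28, Sgcb (1419668_at) to Hmgxb3, Akr1b8 and Fgfbp3, and Sspn to Asf1b, Rhbdf1 and Crat. With only 4 points per profile, many genes lie close to any pattern by arithmetic alone.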

How the data were processed

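Per probe set and array, the deposited tables give a linear signal intensity made by the authors with MAS5, per the submitters' processing notes (version: not given in the sources used here). Arrays had been scaled before deposit, since their trimmed means lay between 1499.7 and 1499.9. The deposited settings files gave scan and fluidics details only. No detection calls were used here. Probe sets were named from the supplied platform annotation, with symbols updated through Entrez identifiers to RefSeq; 34945 of 45037 had 1 symbol.

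Signals were scaled per array type to the mean trimmed mean, log2-transformed with no pseudocount, and the array types stacked (100 shared probe sets kept their MOE430A value, controls were left out). The groups were tested two-sided with limma 3.58.1 under R 4.3.3, letting the variance follow intensity (2 cultures each, 5.67 degrees of freedom after moderation). The number of arrays limits precision: an exact permutation test of 2 against 2 cannot give a p below 0.333. One probe set stood for a gene: MOE430A first, then the highest mean signal. Of each pathway list the up to 4 genes with the smallest p were named, and of marker lists the 3 brightest; Lama2, Agrn, Nos1, Dysf, Pomt2 and Ptprc were added after their values were seen. The members and lists were chosen with earlier results of these data known.

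The fit was also run on simulated data, and that run does not show that changes as small as those of the members can be detected. For each array type the arrays came from 1 lot and 1 scan day, and cultures ran on different fluidics modules, so module and culture cannot be told apart. Replicate numbers are not stated to mark a shared animal or day, so the cultures were not paired in the fit. Deviations of same-numbered cultures correlated at -0.03, which cannot show whether they shared either. Log2 signals correlated at 0.858 between the MACS cultures, 0.839 between the PP6 cultures and 0.783 to 0.835 across groups. The MACS extracts held 55 and 65 ng/ul of RNA, those of PP6 35 and 15 ng/ul. Alternatives covered scaling, dim signals, filters, the variance model, each array type alone, the replicate block, leaving out each culture, and the choice of probe sets.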

Additional observations from a re-analysis of the deposited data

How the results depend on the processing

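Under 15 alternatives 0 member probe sets passed an adjusted p of 0.05. At an unadjusted p under 0.05 the count was 0, except without MACS replicate 2, where Dag1 1426778_at had -0.76 (adjusted p 0.452), and without MACS replicate 3, where Dag1 1426779_x_at had 0.82 (adjusted p 0.383, both limma), so leaving out single cultures gave 0 to 1. Sgca, Dag1 1426779_x_at and Sgcb 1419667_at kept their sign in every alternative, Sgca between 0.37 (without MACS replicate 2) and 0.87 (without MACS replicate 3). Dag1 1426778_at stayed negative in every fit of its own, and the sign changed only where the mean of all tested Dag1 probe sets took its place. The remaining probe sets changed sign in at least 1 alternative. Leaving out single cultures gave -0.76 to -0.075 for Dag1 1426778_at, 0.30 to 0.82 for Dag1 1426779_x_at, -0.61 to -0.10 for Sgcb 1419667_at, -0.058 to 0.61 for Sspn, -0.31 to 0.14 for Sgcb 1419668_at, -0.36 to 0.13 for Sgcb 1436678_at, -0.048 to 0.39 for Dag1 1423872_a_at, -0.060 to 0.63 for Dag1 1456131_x_at and -0.10 to 0.39 for Utrn. Dag1 was -0.42 by 1426778_at and 0.15 as the mean of all its tested probe sets. Of the 16 pathway genes named by smallest p, 13 kept their sign. Ranges that crossed 0 were -0.50 to 0.12 for Dtnb, -0.55 to 0.0046 for Drp2 and -0.40 to 3.63 for Large2. Lama2, Agrn, Nos1, Dysf and Pomt2, which were added later, were not followed through the alternatives. Of the 13, the value nearest 0 was 0.30 for B4gat1, 0.38 for Lama4, 0.28 for Dpm3, 0.33 for Sgce and 0.78 for Slit2 (each without MACS replicate 2), -0.15 for Sntb2 (without PP6 replicate 3), 0.38 for Itga7 (without PP6 replicate 2) and -0.40 for Itgb1 (without MACS replicate 3). The median of the other subunits ran from -0.40 to 0.033 when single cultures were left out, and that of the partners from -0.38 to 0.11, or 0.0059 with the filter at the 75th percentile. That of the ligands ran from 0.065 (without MACS replicate 2) to 0.61, and that of the glycosylation genes from 0.0077 (without PP6 replicate 2) to 0.52. Over all probe sets, the replicate block gave 2 past the adjusted threshold and 0 members, without changing any member's call. The floor at the array median gave 23, the filter at the 75th percentile 5, each array type alone 71 (0 of them members) and leaving out single cultures 0 to 1. At an unadjusted p under 0.05 there were 1744 with that filter and 1782 to 2928 without single cultures. The cause was not tested. Dim signals limit what can be read from Dmd, Sgcd and Dtna.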
